A study of Mus musculus with 29 samples.

Results

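Solute carriers are membrane proteins that move amino acids, sugars, lactate, organic ions, metals and nucleotide sugars across the cell surface and across membranes inside the cell. The genes described here are those whose name on the array begins with Slc1, Slc2, Slc3, Slc5, Slc6, Slc7, Slc16, Slc22, Slc30, Slc35, Slc38, Slc39 or Slc43 followed by a family letter from a to f, with Slc2a2 left out. The rule took 162 genes, with 204 probes, of 31687 genes with 39429 probes on the array. One of them, Slc7a6os, takes its name from the strand opposite Slc7a6 and is not itself named as a carrier. Another, printed under its array name Slc22a9, is called Slc22a19 in the current annotation.

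The samples were livers of male wildtype C57BL/6N mice, 3 months old at the start, that had been fed chow and then received a corn oil-based high-fat diet, cHF, for 7 weeks. In the cHF+PC group (8 livers), about 7% of the dietary lipid was replaced by omega-3 phospholipids rich in phosphatidylcholine, a marine concentrate of EPA and DHA. In the cHF+R group (6 livers) the high-fat diet carried a low dose of rosiglitazone, an agonist of the nuclear receptor PPARγ. The cHF+PC+R group (8 livers) received both, and the cHF group (7 livers) received the high-fat diet alone, so that every group ate the high-fat diet and no lean group enters. Each liver was labelled with Cy5 and hybridised, on a 2-colour Agilent array, with a Cy3-labelled equimolar pool of all samples. A log2 ratio of 0 is therefore the level of that pool, and a difference of 1 between groups is a doubling. The authors had left out 1 cHF and 1 cHF+R array before normalization.

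In the liver, hepatocytes take up amino acids, lactate, carnitine and drugs from the blood of the portal vein through carriers of these families, and return others to it. Slc1, Slc6, Slc7, Slc38 and Slc43 carry amino acids and related molecules, and the Slc7 light chains reach the membrane only in a pair with a heavy chain, Slc3a1 or Slc3a2. Slc16 members carry monocarboxylates such as lactate, and some carry aromatic amino acids. Slc22 holds the organic cation, carnitine and organic anion carriers, Slc2 and Slc5 the glucose carriers and their relatives, and Slc35 the carriers that supply nucleotide sugars to the Golgi and the endoplasmic reticulum. Slc30 members move zinc or manganese out of the cytosol, and Slc39 members move zinc, iron or manganese into it.

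The ratios below were read by 60-base probes, and the last 30 bases of the probes for the genes with the clearest differences are shown first, in lower case, 5′ to 3′. Capitals mark AATAAA, the signal that precedes the end of many messenger RNAs. Both probes are shown for the genes whose probes are compared further on.
Slc7a2: ggaggggtataggaaaatgcccttagtcca
Slc1a5, the brighter probe: agagttctctacccttttaaaggcaaaagt
Slc1a5, the other probe: gtgccacgttcgaaaaggaatctgtcatgt
Slc16a5, the brighter probe: acacacacacaAATAAAcgttattaaaaaa
Slc16a5, the other probe: cagtgagacctcgtggtttccttccatcct
Slc22a5: ttatctgtgtcttgaaggaaatgtatggat
Slc22a7: caactcctgcagcactgggctgttggggat
Slc22a18: cggcAATAAActtaagaacctcttcctctt
In the mm9 build, as the array files give it, the Slc7a2 probe lies at chr8:42002869-42002928 (plus strand) and the Slc22a18 probe at chr7:150685176-150685235 (plus strand). The Slc22a5 probe lies at chr11:53678550-53678609 and the Slc22a7 probe at chr17:46569272-46569331, both on the minus strand. The brighter Slc1a5 probe lies at chr7:17383359-17383418 and the other at chr7:17383027-17383086, with 272 bases between them. The brighter Slc16a5 probe lies at chr11:115335616-115335675 and the other at chr11:115324039-115324098, 11517 bases apart, all 4 on the plus strand. Which exon or untranslated region each probe falls in was not analysed here. Of the 204 member probes, 11.3% hold AATAAA, against 12.6% of all 39429 probes, and 3.43% of member probes hold its complement TTTATT, against 4.03% of all.

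A gene counted as detected on an array when the Cy5 spot of at least 1 of its probes was well above background by the scanner software. Of the 162 solute carrier genes, 97 (59.9%) were detected on all 29 arrays, 47 on some and 18 (11.1%) on none. Of all genes on the array, 50.1% were detected on all arrays and 12% on none. Both shares on none depend on 1 array, cHF replicate 4, as given below. Detection was most complete among the nucleotide sugar carriers, with 18 of 23 genes on all arrays, the monocarboxylate carriers, with 11 of 14, and the zinc carriers, with 17 of 24. It was 30 of 57 for the amino acid carriers, 11 of 19 for the organic ion carriers and 9 of 24 for the hexose and sodium-coupled carriers.

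**Figure D1:**
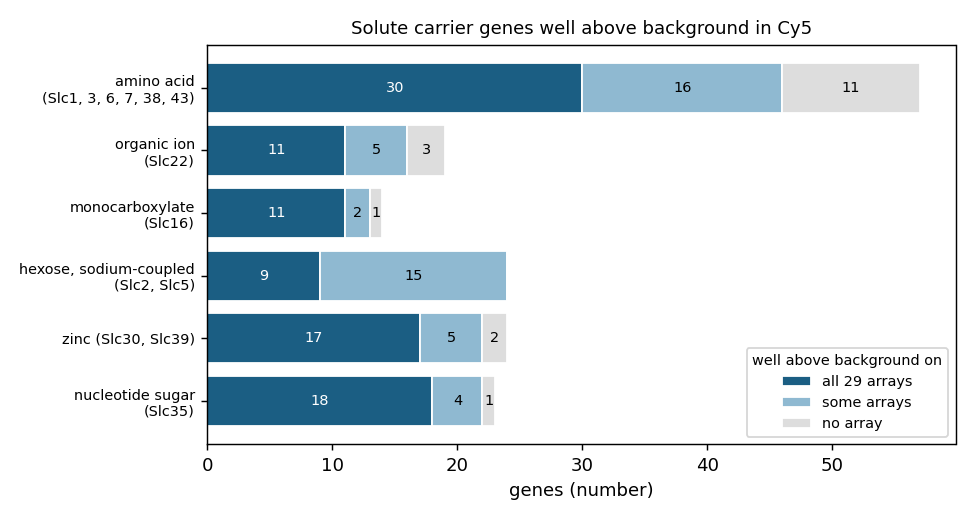
Number of solute carrier genes in each family (rows) whose Cy5 spot was well above background on all 29 arrays, on some arrays or on none. Amino acid carriers hold most of the genes seen on none (11 of 18), and every hexose or sodium-coupled carrier was seen on at least 1 array, 4 of the 24 only on cHF replicate 4. Without that array amino acid carriers hold 15 of the 30 seen on none. Slc7a6os, seen on all arrays, is not drawn.

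The 18 genes not well above background on any array were Slc1a1, Slc1a3, Slc6a2, Slc6a3, Slc6a15, Slc6a19, Slc7a6, Slc7a9, Slc7a10, Slc7a11, Slc7a13, Slc16a4, Slc22a2, Slc22a3, Slc22a8, Slc30a3, Slc30a8 and Slc35f4. Among them are carriers best known from neurons (the noradrenaline and dopamine carriers Slc6a2 and Slc6a3), kidney or gut (Slc6a19, Slc7a9, Slc22a2 and Slc22a8) and pancreatic islets (Slc30a8). Slc7a11, the cystine and glutamate exchanger, was also among them and was not tested. Slc2a4, the insulin-responsive glucose carrier of muscle and fat, was detected on 11 of 29 arrays, Slc2a3 on 17 and the intestinal sodium-glucose carrier Slc5a1 on 1, which was cHF replicate 4.

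By diet, 100 members were detected on every cHF+PC array, 101 on every cHF+R array, 100 on every cHF+PC+R array and 101 on every cHF array. The members detected on no array of a group numbered 40 with cHF+PC, 41 with cHF+R, 40 with cHF+PC+R and 22 with cHF. That lower number came with 1 array: cHF replicate 4 had 137 members and 80.8% of all spots well above background, against 106 to 117 members and 55.0% to 62.5% of spots on the other arrays. Without it, 41 members were detected on no cHF array, and 97, 35 and 30 members were detected on all, some and none of the remaining 28 arrays. Of all 31687 genes, 15888, 8187 and 7612 were detected on all, some and none of these 28 arrays. No member was detected on every array of one group and on none of another.

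Changes were tested for the 117 members with a probe well above background on at least 6 arrays and a value on at least 20, within a fit over 19460 genes. The other 45 members did not pass these limits and were not tested. A gene is called higher or lower where the Benjamini-Hochberg adjusted p of limma's moderated test, over all genes, was under 0.05. Where a gene had several probes, the brightest represented it. The labels do not say whether livers were handled apart from one another beyond being separate samples.

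In cHF+PC against cHF, 1 of the 117 tested members was higher and none lower, or 0.855%, against 3.93% of all genes (1.8% higher and 2.13% lower). In cHF+R against cHF, 4 were higher and 1 lower (4.27%, against 3.12% of all genes, 2.01% higher and 1.1% lower). One of those 4, Slc22a20, could enter the test only through the cHF+R arrays on which it is high, so nothing is read from this share. In cHF+PC+R against cHF, 8 were higher and 1 lower (7.69%, against 9.47% of all genes, 4.72% higher and 4.75% lower). These comparisons share the cHF livers. In cHF+PC+R against cHF+R, which asks what the phospholipids changed where rosiglitazone was given, 4 were higher and 3 lower (5.98%, against 7.15% of all genes, 3.31% higher and 3.84% lower). Apart from cHF+R against cHF, the member shares lay below those of all genes. The counts of members are small, and nothing is read from these gaps either.

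In cHF+PC+R against cHF+PC, limma called 0 members, against 0.134% of all genes (26 genes), with 9 members (7.69%, against 8.54% of all genes) at an unadjusted p under 0.05. The test of whether the change with phospholipids differed with and without rosiglitazone called 0 members and 0% of all genes, with 10 members (8.55%, against 6.65% of all genes) at an unadjusted p under 0.05. Across the 117 members the median change was 0.01 in cHF+PC, 0.04 in cHF+R and 0.01 in cHF+PC+R, each against cHF, on the log2 scale. The medians over all genes were 0.00, 0.01 and 0.01. In all, 16 genes account for the calls, Slc22a20 among them.

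**Figure D2:**
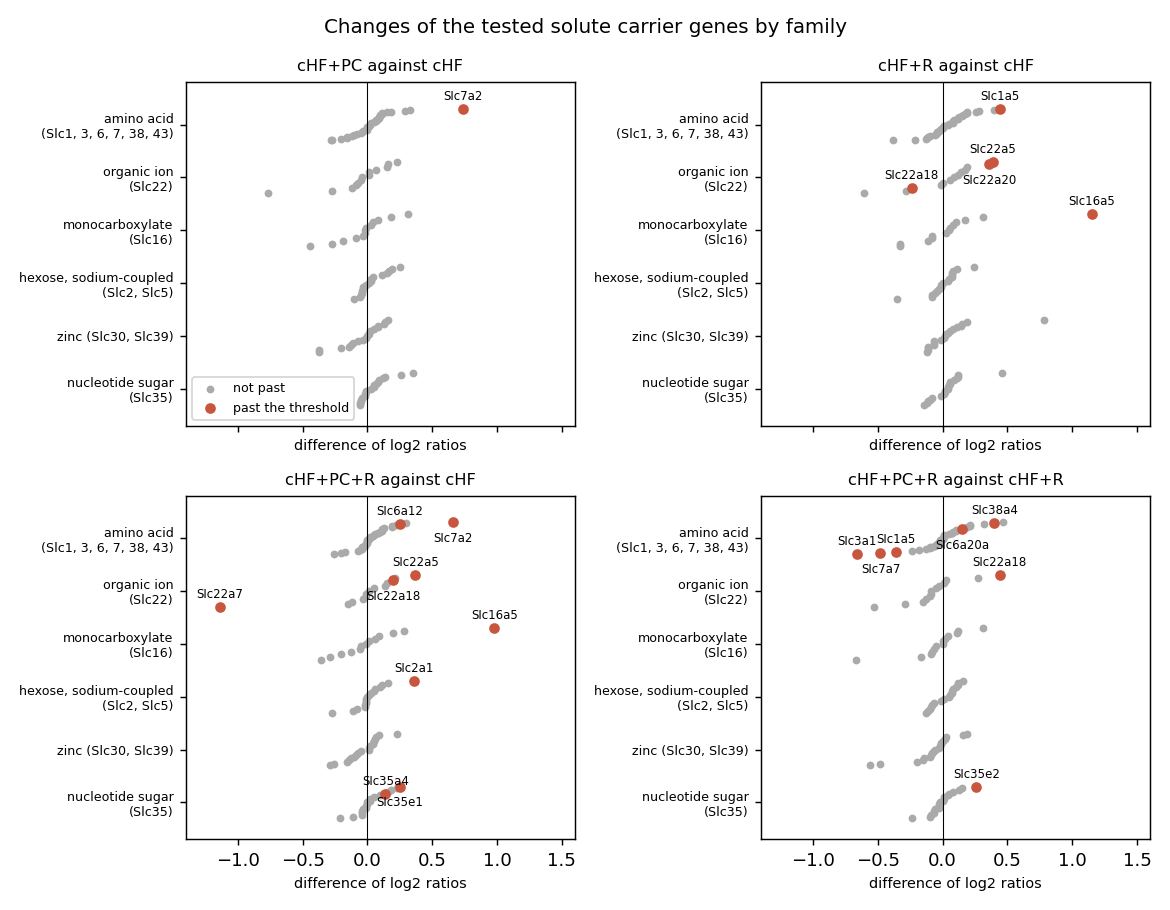
Difference of mean log2 ratios for every tested solute carrier gene, by family (rows; points spread vertically within a row by rank only), in 4 comparisons. Large labelled points are the genes called at an adjusted p under 0.05. Most points lie close to 0, and the calls at the ends are Slc16a5 (1.15 and 0.98) and Slc22a7 (-1.14).

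Among the 35 tested amino acid carriers, Slc7a2 separated the cHF+PC livers from the cHF livers. Slc7a2 is CAT-2, which carries arginine, lysine and ornithine. Its log2 ratio ran from 0.04 to 0.53 (median 0.25) in cHF+PC livers, from -0.60 to 0.36 (median -0.36) in cHF+R livers, from -0.41 to 0.92 (median 0.19) in cHF+PC+R livers and from -1.4 to -0.09 (median -0.33) in cHF livers. Every cHF+PC liver was above every cHF liver, while the other groups overlapped with cHF. Slc7a2 was higher in cHF+PC than in cHF by 0.74 (1.67-fold, SE 0.174, limma adjusted p = 0.0137), and higher on 7 of the 7 slides that held both groups. It was higher in cHF+PC+R than in cHF by 0.66 (1.58-fold, SE 0.174, limma adjusted p = 0.0151), on 6 of 7 slides. In cHF+R against cHF the difference was 0.19 (SE 0.187, limma adjusted p = 0.696), and in cHF+PC+R against cHF+R it was 0.47 (SE 0.182, limma adjusted p = 0.113). Neither passed. In such bulk samples, fewer cells of a type and less RNA per cell cannot be told apart.

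Slc1a5, the neutral amino acid exchanger ASCT2 that carries glutamine, was the amino acid carrier with the smallest adjusted p for rosiglitazone. Its log2 ratio ran from 0.11 to 0.75 (median 0.36) in cHF+R livers, from -0.37 to -0.02 (median -0.04) in cHF+PC livers, from -0.21 to 0.13 (median 0.06) in cHF+PC+R livers and from -0.20 to 0.12 (median -0.08) in cHF livers. The cHF+R livers were the high ones, with only the lowest of them reaching into the cHF and cHF+PC+R ranges. Slc1a5 was higher in cHF+R than in cHF by 0.44 (1.36-fold, SE 0.0754, limma adjusted p = 0.000528), on 5 of 5 slides. It was lower in cHF+PC+R than in cHF+R, with a difference of -0.36 (1.29-fold, SE 0.0732, limma adjusted p = 0.00239), on 6 of 6 slides. The differences of cHF+PC and cHF+PC+R from cHF were -0.03 and 0.08 and did not pass. Its other probe gave 0.30 (SE 0.0528) in cHF+R against cHF and -0.22 (SE 0.0512) in cHF+PC+R against cHF+R, both past the threshold when adjusted over all probes (limma, 0.000809 and 0.00826).

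Slc7a7 and Slc3a1 were also lower in cHF+PC+R than in cHF+R. Slc7a7 is y+LAT1, a light chain for dibasic and neutral amino acids that pairs with Slc3a2. It ran from -0.45 to 0.07 (median -0.21) in cHF+PC+R livers, against -0.10 to 0.90 (median 0.19) in cHF+R livers, and the groups overlapped between -0.10 and 0.07. It was lower, at a difference of -0.48 (1.39-fold, SE 0.12, limma adjusted p = 0.0135), on 6 of 6 slides. Slc3a1, the heavy chain rBAT of the cystine and dibasic amino acid carrier, ran from -0.65 to 0.74 (median -0.49) in cHF+PC+R livers, against -0.16 to 1.16 (median 0.27) in cHF+R livers. The groups overlapped through 1 cHF+PC+R liver, replicate 2, at 0.74, with the next highest at -0.25. Slc3a1 was lower, at a difference of -0.66 (1.58-fold, SE 0.207, limma adjusted p = 0.0483), and this call was lost on leaving out any of 24 of the 29 arrays, with an adjusted p of up to 0.114.

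Slc38a4 and Slc6a20a were higher in cHF+PC+R than in cHF+R. Slc38a4 is SNAT4, a sodium-coupled carrier of neutral amino acids. It ran from -0.08 to 0.56 (median 0.22) in cHF+PC+R livers, against -0.40 to 0.14 (median -0.22) in cHF+R livers, with an overlap between -0.08 and 0.14. The difference was 0.40 (1.32-fold, SE 0.113, limma adjusted p = 0.0295), lost on leaving out any of 8 arrays (adjusted p up to 0.085) and with slide as a fixed term (0.0725). In cHF+PC livers it ran from 0.12 to 0.90 (median 0.33), against -0.02 to 0.19 (median 0.01) in cHF livers, a difference of 0.33 that did not pass (limma adjusted p = 0.0785). Slc6a20a, a proline carrier, ran from -0.04 to 0.27 (median 0.02) in cHF+PC+R livers, against -0.23 to -0.01 (median -0.09) in cHF+R livers. It was higher by 0.15 (1.11-fold, SE 0.0473, limma adjusted p = 0.0494), and leaving out any of 22 of the 29 arrays ended the call (adjusted p up to 0.134), as did slide as a fixed term (0.0622).

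Slc6a12, the betaine and GABA carrier BGT1, ran from -0.01 to 0.34 (median 0.16) in cHF+PC+R livers, against -0.30 to 0.08 (median -0.09) in cHF livers. Of the 8 cHF+PC+R livers, 4 lay above the cHF range and the others within it or at its upper edge. It was higher by 0.25 (1.19-fold, SE 0.0535, limma adjusted p = 0.00278), on 7 of 7 slides. The differences from cHF were 0.15 in cHF+PC (limma adjusted p = 0.115) and 0.19 in cHF+R (0.0733), and neither passed. Slc6a8, the creatine carrier, ran from -0.32 to -0.08 (median -0.20) in the 7 cHF+PC livers with a value, against -0.06 to 0.28 (median 0.05) in cHF livers. These ranges did not overlap, and the difference of -0.27 (SE 0.084) missed the threshold (limma adjusted p = 0.0633).

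The other amino acid carriers chosen as liver transporters did not pass in any comparison. Slc3a2, the 4F2 heavy chain, differed from cHF by 0.00 in cHF+PC, 0.00 in cHF+R and -0.06 in cHF+PC+R, on the log2 scale. The system A carrier Slc38a2 differed by 0.11, -0.13 and 0.19 in the same order, and the system N carrier Slc38a3, which moves glutamine, by 0.29 (limma adjusted p = 0.172), -0.11 and 0.11. The glutamate carrier Slc1a2 differed by -0.12, -0.38 (limma adjusted p = 0.133) and -0.17. The taurine carrier Slc6a6 differed by 0.10, 0.12 and 0.30 (limma adjusted p = 0.256), and Slc43a1, the branched-chain amino acid carrier LAT3, by 0.11, 0.04 and 0.01.

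**Figure D3:**
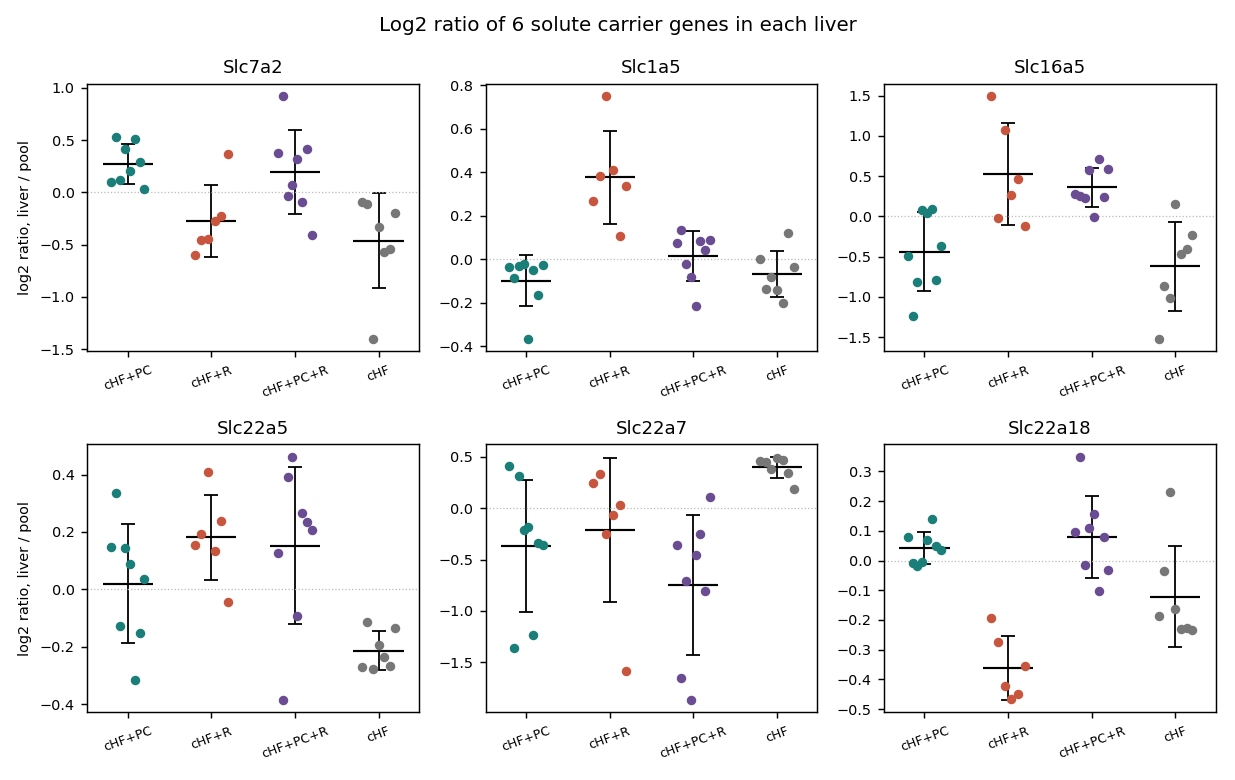
Log2 ratio of liver over pool (vertical axis, 1 point per liver) for 6 solute carrier genes in the 4 diet groups; horizontal bars are means and whiskers are SDs. Every cHF+PC liver lies above every cHF liver for Slc7a2, every cHF+R liver above every cHF liver for Slc22a5, and every cHF+PC+R liver below every cHF liver for Slc22a7.

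Among the 13 tested organic ion carriers, Slc22a5, Slc22a7 and Slc22a18 were called, as was Slc22a20, which entered the test only through the cHF+R arrays. Slc22a5 is OCTN2, the sodium-coupled carrier that brings carnitine into the cell. Its log2 ratio ran from -0.32 to 0.34 (median 0.06) in cHF+PC livers, from -0.04 to 0.41 (median 0.17) in cHF+R livers, from -0.38 to 0.46 (median 0.22) in cHF+PC+R livers and from -0.28 to -0.11 (median -0.24) in cHF livers. All cHF+R livers were above all cHF livers, and in cHF+PC and cHF+PC+R most livers were above the cHF range while the lowest was below it. Slc22a5 was higher in cHF+R than in cHF by 0.39 (1.31-fold, SE 0.104, limma adjusted p = 0.0295), on 5 of 5 slides. Leaving out any of 8 arrays raised its adjusted p above the threshold, up to 0.0853, and so did slide as a fixed term (difference 0.35, limma adjusted p = 0.121). In cHF+PC+R it was higher than in cHF by 0.37 (1.29-fold, SE 0.0968, limma adjusted p = 0.0154), on 6 of 7 slides, and remained past the threshold without any single array. The difference of 0.23 in cHF+PC did not pass (limma adjusted p = 0.184).

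Slc22a7, the organic anion carrier OAT2, was the carrier with the lowest difference in cHF+PC+R against cHF. It ran from -1.36 to 0.41 (median -0.27) in cHF+PC livers, from -1.58 to 0.33 (median -0.02) in cHF+R livers, from -1.86 to 0.10 (median -0.58) in cHF+PC+R livers and from 0.19 to 0.49 (median 0.45) in cHF livers. All cHF+PC+R livers were below all cHF livers, and each of the 3 supplemented groups spread more widely than cHF, with an SD of 0.64 in cHF+PC, 0.702 in cHF+R and 0.682 with both, against 0.105 in cHF. Slc22a7 was lower in cHF+PC+R than in cHF, with a difference of -1.14 (2.21-fold, SE 0.284, limma adjusted p = 0.0101), on 7 of 7 slides. The differences of -0.77 (SE 0.284) in cHF+PC and -0.61 (SE 0.306) in cHF+R did not pass (limma adjusted p = 0.132 and 0.349).

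Slc22a18, an organic cation carrier of little-known substrates, stood lowest in cHF+R livers. It ran from -0.02 to 0.14 (median 0.04) in cHF+PC livers, from -0.47 to -0.19 (median -0.39) in cHF+R livers, from -0.10 to 0.35 (median 0.09) in cHF+PC+R livers and from -0.23 to 0.23 (median -0.19) in cHF livers. No cHF+R liver reached the cHF+PC+R range, while cHF livers overlapped with both. Slc22a18 was higher in cHF+PC+R than in cHF+R by 0.44 (1.36-fold, SE 0.0659, limma adjusted p = 0.000106), on 6 of 6 slides. It was lower in cHF+R than in cHF, with a difference of -0.24 (1.18-fold, SE 0.0678, limma adjusted p = 0.0481), a call lost without any of 19 arrays (adjusted p up to 0.108) and with slide as a fixed term (0.0662), and turned to 0.08 when arrays were centred on their medians in place of loess, where the median of all genes was 0.153. It was higher in cHF+PC+R than in cHF by 0.20 (1.15-fold, SE 0.0631, limma adjusted p = 0.0405), lost without any of 10 arrays (adjusted p up to 0.0891) and with slide as a fixed term (0.0532).

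Slc22a20, the organic anion carrier OAT6, was near background in most livers. It was well above background on 0 of 8 cHF+PC arrays, 5 of 6 cHF+R arrays, 2 of 8 cHF+PC+R arrays and 1 of 7 cHF arrays. That cHF array was replicate 4, which had 80.8% of all spots well above background. Slc22a20 could enter the test only through the cHF+R arrays. Its log2 ratio ran from -0.14 to 0.43 (median 0.21) in cHF+R livers, against -0.25 to -0.06 (median -0.17) in cHF livers. The ranges overlapped only near their ends. The difference of 0.36 is a description, since the arrays on which the gene is high also decided that it was tested.

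The monocarboxylate carriers gave calls on 1 of 13 tested genes. Slc16a5, or MCT6, is a less studied member that carries some drugs. Its log2 ratio ran from -1.23 to 0.10 (median -0.43) in cHF+PC livers, from -0.11 to 1.5 (median 0.37) in cHF+R livers, from -0.01 to 0.72 (median 0.27) in cHF+PC+R livers and from -1.52 to 0.16 (median -0.47) in cHF livers. The livers given rosiglitazone were the high ones, with or without phospholipids, and their lower ends overlapped with the upper ends of cHF+PC and cHF. Slc16a5 was higher in cHF+R than in cHF by 1.15 (2.22-fold, SE 0.253, limma adjusted p = 0.00797), on 5 of 5 slides. It was higher in cHF+PC+R than in cHF by 0.98 (1.97-fold, SE 0.236, limma adjusted p = 0.0081), on 6 of 7 slides. In cHF+PC+R against cHF+PC the difference was 0.80 (SE 0.228), with an unadjusted p of 0.00156 in limma's fit and an adjusted p of 0.194, and did not pass.

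The calls of Slc16a5 rest on 1 of its 2 probes. The brighter probe is the one whose printed part holds AATAAA and ends in a run of A, and 60% of those 30 bases are A. The other probe, 11517 bases away, gave 0.11 (SE 0.0505, limma adjusted p over probes = 0.284) in cHF+R against cHF and 0.05 (SE 0.047, 0.599) in cHF+PC+R against cHF. Whether both probes report the same transcript was not tested. Slc1a5, Slc35e1 and Slc35e2 also had a second probe, and there both probes moved in the same direction.

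**Figure D4:**
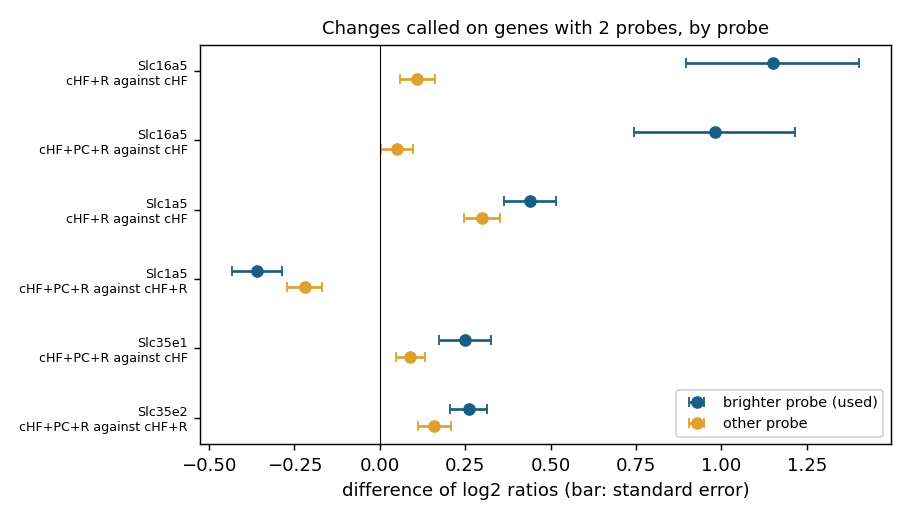
Difference of mean log2 ratios (points) with its standard error (bars) for each call on a gene with 2 probes, for the brighter probe that represents the gene and for the other probe. For Slc16a5 the brighter probe gave 1.15 and 0.98 and the other 0.11 and 0.05; for the other 3 genes both probes lie on the same side of 0.

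Slc16a1, the lactate carrier MCT1, differed from cHF by -0.02 in cHF+PC, 0.03 in cHF+R and -0.05 in cHF+PC+R. Slc16a10, the aromatic amino acid carrier, differed by 0.31 (limma adjusted p = 0.107), -0.11 and 0.20 in the same order. Neither passed, but with its 2 probes averaged Slc16a10 was higher in cHF+PC (0.20, limma adjusted p = 0.0477) and cHF+PC+R (0.23, 0.00871) than in cHF, and in cHF+PC+R than in cHF+R (0.26, 0.00654). Basigin, Bsg, the chaperone that takes MCT1 to the membrane, was higher than in cHF in both phospholipid groups, by 0.26 in cHF+PC (SE 0.0531, limma adjusted p = 0.00515) and by 0.29 in cHF+PC+R (limma adjusted p = 0.000641). Slc16a6 came close without passing, with a difference of -0.67 in cHF+PC+R against cHF+R (SE 0.211, limma adjusted p = 0.0511).

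Of the 17 tested hexose and sodium-coupled carriers, Slc2a1 was called. Slc2a1 is GLUT1, the widely expressed glucose carrier, and its probe lies at chr4:118809864-118809923 (mm9). Its log2 ratio ran from -0.12 to 0.43 (median 0.18) in cHF+PC livers, from 0.10 to 0.45 (median 0.21) in cHF+R livers, from 0.07 to 0.66 (median 0.37) in cHF+PC+R livers and from -0.12 to 0.14 (median 0.04) in cHF livers. The cHF+PC+R and cHF ranges met only between 0.07 and 0.14. Slc2a1 was higher in cHF+PC+R than in cHF by 0.36 (1.28-fold, SE 0.0883, limma adjusted p = 0.00974), on 6 of 7 slides. The differences of 0.15 in cHF+PC (limma adjusted p = 0.388) and 0.24 in cHF+R (0.208) did not pass. Slc2a9, which carries urate, differed from cHF by 0.19 in cHF+PC, 0.04 in cHF+R and 0.16 in cHF+PC+R and did not pass, and neither did the fructose carrier Slc2a5 in cHF+PC+R against cHF+PC (-0.44, SE 0.156, limma adjusted p = 0.36).

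Of the 19 tested zinc carriers, limma called 0 in any comparison, with 5 (26.3%, against 18.4% of all genes) at an unadjusted p under 0.05 in cHF+PC against cHF. There were 4 (21.1%, against 22.2% of all genes) in cHF+PC+R against cHF+R and fewer in the other comparisons. Slc30a10, which exports manganese into bile, differed from cHF by -0.37 in cHF+PC (SE 0.151, limma adjusted p = 0.172), -0.11 in cHF+R and -0.26 in cHF+PC+R. Slc39a14, which takes up zinc, iron and manganese, differed by 0.01, -0.12 and 0.07. For Slc39a4, a zinc importer singled out here after its values were seen, 1 spot decides the sign. The log2 ratio in cHF+R replicate 5 was 5.42, against -0.66 to -0.20 in the other 5 cHF+R livers. That spot had a Cy3 local background of 12416.5 against a Cy3 signal of 11160, and its local background on the other arrays was 29 to 44.

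Slc39a4 differed by -0.56 (SE 0.55, limma adjusted p = 0.595) in cHF+PC+R against cHF+R with all arrays and by 0.41 (SE 0.142, limma adjusted p = 0.0843) without that one. Without background subtraction it was higher by 0.47 (SE 0.137, limma adjusted p = 0.032), and with the scanner software's processed signals by 0.71 (SE 0.219, limma adjusted p = 0.0451). Of 4843 spot values of the kept member probes, this was the only 1 whose local background exceeded its signal. The zinc storage and sensing genes Mt1, Mt2 and Mtf1 were tested, and 0 of these 3 were called by limma in any comparison. At an unadjusted p under 0.05 there were 2 in cHF+PC against cHF (66.7%, against 18.4% of all genes). There was 1 in cHF+PC+R against cHF (33.3%, against 24.5%), and nothing is read from so short a list.

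Among the 19 tested nucleotide sugar carriers, Slc35e1 and Slc35a4 were called in cHF+PC+R against cHF and Slc35e2 in cHF+PC+R against cHF+R. All are family members whose substrates are little known. Slc35e1 ran from 0.04 to 0.35 (median 0.11) in cHF+PC+R livers, against -0.60 to 0.11 (median -0.01) in cHF livers, and was higher by 0.25 (1.19-fold, SE 0.0772, limma adjusted p = 0.0344). Its ranges overlapped, and the call was lost without any of 6 arrays (adjusted p up to 0.088) and with slide as a fixed term (0.0551). Slc35a4 ran from -0.06 to 0.13 (median -0.01) in cHF+PC+R livers, against -0.35 to -0.04 (median -0.11) in cHF livers. It was higher by 0.14 (1.1-fold, SE 0.0462, limma adjusted p = 0.0468), a call lost without any of 17 arrays (adjusted p up to 0.131) and with slide as a fixed term (0.0711).

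Slc35e2 ran from -0.08 to 0.31 (median 0.10) in cHF+PC+R livers, against -0.29 to -0.02 (median -0.11) in cHF+R livers. The groups overlapped between -0.08 and -0.02. It was higher by 0.26 (1.19-fold, SE 0.0544, limma adjusted p = 0.00388), on 6 of 6 slides, and its other probe gave 0.16 (SE 0.0491, limma adjusted p over probes = 0.0462). Slc35d1, which brings UDP-sugars into the endoplasmic reticulum, differed from cHF by 0.07 in cHF+PC, 0.12 in cHF+R and 0.18 in cHF+PC+R and did not pass.

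**Figure D5:**
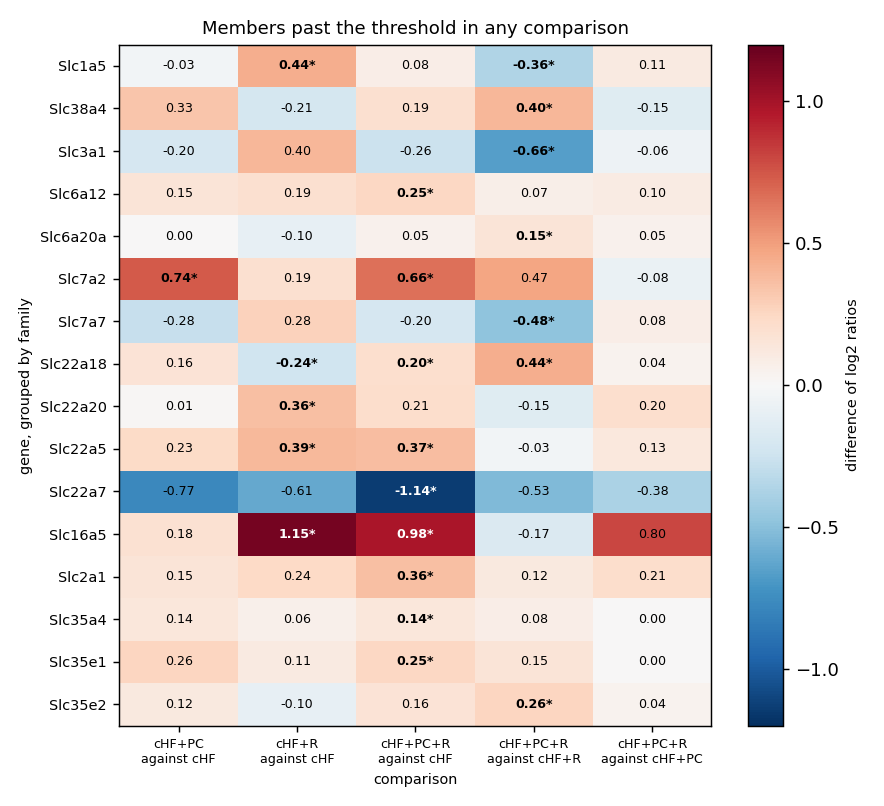
Difference of mean log2 ratios for the 16 solute carrier genes called in any comparison (rows, grouped by family) in 5 comparisons (columns); bold values with an asterisk passed an adjusted p under 0.05, and colour gives sign and size. Slc22a18 carries 3 calls, Slc1a5, Slc7a2, Slc22a5 and Slc16a5 carry 2, and the last column holds none.

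No member was called for the difference between the change with phospholipids under rosiglitazone and the change without it. The smallest unadjusted p-values were those of Slc1a5 (-0.33, SE 0.101, limma adjusted p = 0.563), Slc22a18 (0.28, SE 0.0912, 0.604) and the serotonin carrier Slc6a4 (-0.27, SE 0.096, 0.648). This test compares the phospholipid change with and without rosiglitazone, and the direct comparisons of cHF+PC+R with cHF+R and with cHF+PC are those given above.

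Promoters were looked at in RefSeq's table for GRCm38.p6, as the 250 bases before each transcript start, both strands searched. It held 157 promoters of 125 of the 162 members, and 20 promoters of 10 of the 16 called genes. The PPAR response element searched, AGGTCA repeated in the same direction with 1 free base between, was in 0 member promoters and in 0.0335% of all 32851. With only 11 matches among all promoters, the count of 0 in 157 cannot set the members apart, and nothing is read from it. The single repeat AGGTCA was in 10.2% of member promoters and 14% of all. The amino acid response letters TGATGNAA were in 1.91% of member promoters and 3.45% of all, and the metal response core TGCNCNC in 47.8% and 44.4%. The GC box GGGCGG was in 51.6% of member promoters and 32.7% of all, with a median GC content of 58.8% and 52.4%. Of the 20 promoters of called genes, 8 (40%) held a GC box, with a median GC content of 55.6%. GC-rich promoters are common among widely expressed genes such as Slc2a1. The promoters of Slc22a5 (chr11:53891704-53891953, minus strand) and Slc2a1 (chr4:119108495-119108744, plus strand) are shown with GC boxes, on either strand, in capitals.
Slc22a5: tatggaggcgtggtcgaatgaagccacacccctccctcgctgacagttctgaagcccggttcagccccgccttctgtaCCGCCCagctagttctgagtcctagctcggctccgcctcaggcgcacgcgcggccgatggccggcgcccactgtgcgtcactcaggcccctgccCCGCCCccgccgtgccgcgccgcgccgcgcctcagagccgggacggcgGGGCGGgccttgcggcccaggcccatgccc
Slc2a1: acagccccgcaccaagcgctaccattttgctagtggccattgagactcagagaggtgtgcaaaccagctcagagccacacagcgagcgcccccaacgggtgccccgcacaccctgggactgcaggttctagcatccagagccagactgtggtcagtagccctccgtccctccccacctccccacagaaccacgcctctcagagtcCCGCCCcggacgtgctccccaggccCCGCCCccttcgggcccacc
The Slc22a5 promoter holds 3 GC boxes and 73.6% G or C, and the Slc2a1 promoter 2 and 66.4%. These matches are descriptions of the letters in these windows.

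Genes that work beside the carriers were counted from short lists, and nothing is read from their shares. Of 8 carnitine and acylcarnitine genes, limma called 0 in any supplemented group against cHF. Of all genes, 3.93% were called in cHF+PC, 3.12% in cHF+R and 9.47% in cHF+PC+R. At an unadjusted p under 0.05 there were 1 in cHF+PC (12.5%, against 18.4% of all genes), 3 in cHF+R (37.5%, against 14.9%) and 2 in cHF+PC+R (25%, against 24.5%). In cHF+PC+R against cHF+R, 2 of the 8 were called, both higher (25%, against 7.15% of all genes called). These were Cpt1a, which starts mitochondrial fatty acid import, by 0.33 (SE 0.0858, limma adjusted p = 0.0192), and Aldh9a1, of carnitine synthesis, by 0.29 (SE 0.0911, limma adjusted p = 0.0467). Against cHF, Cpt1a differed by -0.31 in cHF+R (limma adjusted p = 0.0502) and by 0.02 in cHF+PC+R. Aldh9a1 differed by -0.20 and 0.10 in the same order. Of 8 genes of the amino acid response, the pseudokinase Trib3 was the 1 called, and it was higher than in cHF by 1.27 in cHF+PC (SE 0.268, limma adjusted p = 0.00596), 1.04 in cHF+R (SE 0.289, 0.0409) and 1.23 in cHF+PC+R (SE 0.268, 0.00386). Of 5 regulators of uptake genes, the bile acid receptor Nr1h4 was lower in cHF+PC+R than in cHF (difference -0.35, SE 0.0987, limma adjusted p = 0.0242). The xenobiotic receptor Nr1i3 was higher in cHF+PC+R than in cHF+R by 0.63 (SE 0.142, limma adjusted p = 0.00584).

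All 6 hepatocyte markers were well above background on all 29 arrays. Of 5 adipocyte markers, Cfd was well above background on 29 arrays, Retn on 26, Adipoq and Plin1 on 2 and Lep on 0. The mean log2 ratio of the 2 tested adipocyte markers ran from -3.24 to -1.46 (median -2.39) in cHF+PC livers, from -0.72 to 1.92 (median 0.75) in cHF+R livers, from -2.71 to 2.01 (median -1.08) in cHF+PC+R livers and from -2.49 to -1.36 (median -1.83) in cHF livers. The cHF+R livers were thus all above the cHF livers. Cfd was higher in cHF+R than in cHF by 4.51 (SE 0.835, limma adjusted p = 0.00148) and lower in cHF+PC+R than in cHF+R (difference -3.01, limma adjusted p = 0.0265). The part of these markers in the calls of cHF+R on Slc1a5, Slc16a5, Slc22a5, Slc22a18 and Slc22a20 was not tested.

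Other markers moved with the diets as well. The hepatocyte gene Ttr was lower than in cHF, with differences of -0.51 in cHF+PC and -0.59 in cHF+PC+R, and the urea cycle gene Cps1 was higher in cHF+PC+R by 0.53 than in cHF. The stellate cell gene Lrat was lower than in cHF, with differences of -0.49 in cHF+PC and -0.34 in cHF+PC+R. It is 1 of 4 tested stellate cell genes, which ran from -0.49 to -0.02 in cHF+PC and from -0.34 to 0.38 in cHF+PC+R. The red cell gene Alas2 was lower than in cHF, with differences of -0.42 in cHF+R and -0.47 in cHF+PC+R. It is 1 of 2 tested red cell genes, which ran from -0.42 to -0.20 in cHF+R and from -0.47 to 0.16 in cHF+PC+R. The pancreatic elastase gene Cela1, 1 of 4 exocrine pancreas markers listed and the 1 tested, was lower, with differences of -0.30 in cHF+PC and -0.31 in cHF+PC+R. Their part in the calls on the carriers was not tested. Of the macrophage, endothelial, bile duct, lymphocyte and kidney markers, 0 tested genes were called by limma in any comparison. At an unadjusted p under 0.05 there were at most 2 of 5 macrophage genes (cHF+R against cHF, 40%, against 14.9% of all genes). At most 1 of 3 endothelial genes was under it (33.3%). The shares of all genes there were 14.9% in cHF+R against cHF, 24.5% in cHF+PC+R against cHF and 8.54% in cHF+PC+R against cHF+PC. The 1 tested lymphocyte gene was under it in cHF+PC+R against cHF+PC and the 1 tested kidney gene in cHF+PC+R against cHF. Nothing is read from lists this short. Only 2 of 4 bile duct, 1 of 3 lymphocyte and 1 of 3 kidney markers were tested.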

How the data were processed

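Liver RNA of 29 mice was measured on 2-colour Agilent arrays. Per the labels' protocols, part of each total RNA was labelled with Cy5 and part went into the Cy3 pool, and Cy3 carried an equimolar pool of all samples on each array, with no dye swap. Per the file headers and the submitters' processing notes, the deposited intensity values (mean signal and local background of each spot in each colour) came from Agilent Feature Extraction 10.5.1.1. The authors' deposited value table holds log2 values in 25806 rows, numbered by array spot, with a median of 9.03 in each of 29 columns. Set against the arrays, each column followed its own array's log2 Cy5 (r 0.99 to 0.999), so that its direction is that of the liver, while how it was scaled stays unknown, and it served as an alternative.

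From the intensities, background was corrected with limma's normexp (offset 50), ratios of Cy5 over Cy3 were normalized by loess within each array, and spots of a probe were averaged after leaving out control spots and outlier flags. Probes were named through their accession in RefSeq's GRCm38.p6 gene table (26518 probes), a symbol (3785) or an older symbol (716), and otherwise kept the name in the file (8410). Positions are those of the files (mm9). Kept were probes with a value on 20 or more arrays whose Cy5 spot was well above background on 6 or more (23932 of 39429), and the brightest kept probe stood for a gene. Group means of all 29 arrays were fitted with limma 3.58.1 in R 4.3.3 (lmFit, eBayes), two-sided, with Benjamini-Hochberg adjustment over 19460 genes. The pipeline was tested on simulated data first. The 29 arrays came from 8 slides scanned on 1 day, and no slide held 2 arrays of a group. The lowest correlation between 2 arrays' ratios over 39429 probes was -0.329, and the direction was kept because the labels state the dyes. The number of arrays limits the precision. Nothing in the labels says more of the livers than that they are separate samples. The p-values set each difference against the spread between these samples within groups. The fit takes 1 such spread per gene for all groups, also where the groups differ in spread, as for Slc22a7.

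Genes named are all members past the threshold in a comparison where at most 15 pass, the 3 with the smallest p where none passes, and a list of liver transporters, some of which are not reported here. Slc39a4, Slc16a6, Slc30a7, Slc6a8 in cHF+PC against cHF and the genes named for detection alone were named after their values were seen. The members and all lists were chosen with earlier results of these data known. Alternatives changed the background correction, the normalization, the filter, the choice of probe, slide or replicate number as a block, array weights, the arrays fitted and the deposited table.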

Additional observations from a re-analysis of the deposited data

Results flagged for a closer look

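Of 132 tests of a gene in a group of 6 to 8 livers (33 named genes), 14 had 1 liver farther from its nearest neighbour than Dixon's 95% criterion allows. Chance flags about 1 in 20 such groups. No explanation was tested.

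Among the amino acid carriers, Slc7a2 stood at -1.4 in cHF replicate 3 with the next cHF liver at -0.57, and Slc1a5 at -0.37 in cHF+PC replicate 5 with the next at -0.17. Slc3a1 stood at 0.74 in cHF+PC+R replicate 2 (next -0.25), and Slc6a20a at 0.27 in cHF+PC+R replicate 4 (next 0.11). Slc6a8 stood at -0.47 in cHF+R replicate 1 (next -0.04), Slc38a2 at -0.66 in the same liver (next -0.27) and Slc43a1 at -0.29 in cHF+R replicate 3 (next 0.04). The cHF liver that was low for Slc7a2 lies on the side that widens its difference from the cHF+PC group, and without cHF replicate 3 the call remained.

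Among the organic ion carriers, Slc22a7 stood at -1.58 in cHF+R replicate 6 (next -0.25) and Slc22a18 at 0.23 in cHF replicate 3 (next -0.04). Among the others, Slc35a4 stood at 0.20 in cHF+PC replicate 4 (next 0.03) and at 0.13 in cHF+PC+R replicate 4 (next 0.01). Slc35e2 stood at 0.28 in cHF+PC replicate 4 (next 0.11), Slc35d1 at 0.43 in cHF replicate 3 (next -0.08) and Slc39a14 at -0.39 in cHF+R replicate 1 (next -0.16). The liver cHF replicate 3 carries 3 of the 14, cHF+R replicate 1 carries 3 and cHF+PC replicate 4 and cHF+PC+R replicate 4 carry 2 each.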

How the results depend on the processing

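Apart from leaving out 1 array at a time there were 14 settings, among them a fit of only the groups compared. Under these 14, Slc1a5 kept both its calls, while other calls were lost in 1 or more. Those lost most often were Slc6a20a (10 settings), Slc3a1, Slc35e1 and Slc22a18 in cHF+PC+R against cHF (8 each), Slc35a4 and Slc22a18 in cHF+R against cHF (7 each) and Slc22a5 in cHF+R against cHF (6). With arrays centred on their medians in place of loess, 0 members were called in cHF+PC, 2 in cHF+R and 1 in cHF+PC+R, each against cHF, and 1 in cHF+PC+R against cHF+R (1, 5, 9 and 7 as reported). With loess followed by scaling the numbers were 2, 2, 0 and 1 in the same order. The calls over all genes fell to 10, 82, 80 and 52 with median centring and 255, 70, 145 and 74 with scaling, from 764, 607, 1843 and 1392. Of the genes called in cHF+R against cHF, 64.6% were higher as reported, 93.9% with median centring, 85.7% with scaling and 39.4% in the deposited table. In cHF+PC+R against cHF that share was 49.8% and 30.6% in the deposited table, and in cHF+PC+R against cHF+R it was 46.3%, 13.5% with median centring, 28.4% with scaling and 58.5% in the deposited table. Slc22a18 in cHF+R against cHF turned to 0.08 (limma adjusted p = 0.88) with median centring, and the cause was not tested. Slc1a5 also kept both calls without any single array.

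In cHF+PC against cHF, 5 members were called without background subtraction and 5 with the processed signals, 4 with the deposited table, 2 among probes detected on all arrays, 3 with probes averaged, 2 with slide as a fixed term, 6 with array weights and 3 with only the groups compared. In cHF+R against cHF, 3 were called with Cy5 alone, with the deposited table, without a filter and with slide fixed. Cy5 alone gave 5 in cHF+PC+R against cHF and 4 in cHF+PC+R against cHF+R. In cHF+PC+R against cHF+R, 11 were called without background subtraction and 4 with only the groups compared. Array weights called 1 member, Slc16a5, in cHF+PC+R against cHF+PC. The calls over all genes under these settings are not reported here, so nothing about the members is read from these counts.

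Whether the replicate numbers pair the livers was not settled. Correlations above 0.1 were found in 14 of 40 same-numbered pairs (median 0.0218) and 57 of 274 other-numbered pairs (median -0.00311). Of the 29 arrays, 9 correlated best with an array of their own number. With the replicate block, 2, 2, 9 and 7 members were called, and the calls over all genes are not reported here. In cHF+R against cHF, Slc22a5 (adjusted p = 0.0604) and Slc22a18 (0.0646) then missed the threshold with limma, as did Slc22a20, and Slc6a20a did in cHF+PC+R against cHF+R (0.0912), while Slc16a10 passed in cHF+PC against cHF (0.0271). Without 1 array at a time the counts ran from 1 to 2 in cHF+PC, 2 to 5 in cHF+R and 6 to 11 in cHF+PC+R against cHF, and from 4 (without cHF+R replicate 1) to 13 (without cHF+R replicate 6) in cHF+PC+R against cHF+R. Over all genes they ran from 438 to 871, 446 to 685, 1371 to 2026 and 762 to 1980 in the same order. The interaction gave 0 members under all settings. With the software's laxer flag, positive and significant, 115 members were detected on all arrays in place of 97.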

Other observations

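Some carriers that did not pass with all livers passed when 1 was left out. Without cHF+PC+R replicate 3, Slc16a10, the aromatic amino acid carrier, passed in cHF+PC+R against cHF+R (limma adjusted p = 0.0298), as it did with all livers when its probes were averaged. Without cHF+R replicate 6, Slc7a2 passed in the same comparison (0.0321), and without cHF replicate 3, Slc35d1 passed in cHF+PC+R against cHF (0.0239). Without cHF+R replicate 2, Slc1a2 passed in cHF+R against cHF (0.0454). The zinc exporter Slc30a7 differed by -0.48 in cHF+PC+R against cHF+R (limma adjusted p = 0.0877).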
